A study of Mesocricetus auratus with 8 samples.

Results

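Fibroblast and mesenchymal marker genes were followed in primary cultures of Syrian hamster satellite cells (SCs), the stem cells of skeletal muscle, before and after exposure to cold. The genes were chosen by name as markers of fibroblasts, fibro-adipogenic progenitors and related connective tissue cells that can accompany SCs out of digested muscle. The list held 10 names, and 9 of them were found by gene symbol among the 17590 genes with values in the deposited table (Pdgfra, Pdgfrb, Thy1, Cd34, Dcn, Lum, Fbn1, Postn and Fn1). Fap was not analysed here. All 9 passed the filter on low counts, so each was measured in every library.

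The SCs came from the hindlimb muscles of sexually mature male wild-type hamsters and were purified by preplating, which lowers the number of fibroblasts by letting them attach first. From staining of such hamster cultures, the paper reports that the great majority of cells carried Pax7 or MyoD protein. Staining of the sequenced cultures themselves is not described. Control libraries (n = 4) were taken at 37°C after 48 h of preculture and 24 h in growth medium with 100 mM HEPES, a buffer that holds the pH. Cold libraries (n = 4) went through the same steps and then 24 h at 4°C without a change of medium. The 2 groups therefore differed in time in culture as well as in temperature, and these cannot be told apart here. For the controls the titles name day 3 throughout, but the treatment field differs by replicate, reading 3 (replicate 1), 4 (replicate 2), 5 (replicate 3) and 6 days (replicate 4) at 37°C. The total lay between 16530747 and 18533801 read counts per library. Replicates 1 and 2 stood apart from replicates 3 and 4 on the first principal component (54.5% of the variance of log2 CPM, read counts scaled to library size), so results are also given within those pairs of replicates where they differ.

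Fibroblasts of muscle build the connective tissue around fibers and respond to platelet-derived growth factors, whose receptors PDGFRα and PDGFRβ are widely used to find them. They secrete a matrix of fibronectin, fibrillin microfibrils, collagens and small proteoglycans, and they carry THY1 (CD90) at their surface. None of these genes is exclusive to fibroblasts. Myoblasts in culture also make fibronectin, CD34 is found on blood vessel endothelium and on quiescent mouse SCs, and PDGFRβ marks pericytes. In bulk RNA, more cells of a type and more RNA per cell cannot be told apart.

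The 9 genes covered a wide range of levels, given as TPM (reads scaled to transcript length and to the size of the library). Thy1 was the highest, followed by Fn1, and the ranges of these genes over the 8 libraries did not overlap with each other or with that of Dcn, the next in order. Dcn was above Lum in 8 of 8 libraries, although their ranges overlapped. Lum, Fbn1 and Postn were close, with Lum above Fbn1 in 5 of 8 libraries and Fbn1 above Postn in 4 of 8. Postn was above Pdgfrb in 8 of 8 libraries, again with overlapping ranges. Pdgfra and Cd34 were the lowest, and each was clear of its neighbours in the order in all 8 libraries. Together the 9 genes made up between 0.133% and 0.179% of all TPM, and Thy1 and Fn1 alone held between 63.0% and 71.0% of that sum.

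The labelled cell type was checked against its own markers in the same libraries. Des (desmin, the muscle intermediate filament) lay between 724 and 924 TPM, and Myod1, the myogenic determination factor, between 424 and 693 TPM. Myog (myogenin), a factor of differentiating myoblasts, ranged from 292 to 1016 TPM. Of the markers of SCs as stem cells, Pax7 had a mean of 12.7 TPM in the controls and 13.5 TPM in the cold, and Calcr, a receptor of quiescent SCs, was below 1 TPM in all 8 libraries. The fibroblast label was checked against 28 further fibroblast markers, of which 25 had values. The highest of them were Sparc (807 TPM in control), Serpinf1 (354 TPM) and Col5a2 (282 TPM), whereas 3 stayed below 1 TPM (Pi16, which was at 0 counts in all 8 libraries, Clec3b and C3). Transcripts of several genes of this list were thus abundant, and which cells made them was not tested. Pi16, a marker of resting fibroblasts, was not detectable at this depth, where 0 reads allow up to 3 in a library.

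Endothelial markers were near the floor. Of 11 endothelial genes, 10 had a mean below 1 TPM, and Cdh5 (VE-cadherin) had 1.62 TPM in the controls and 1.54 TPM in cold libraries. The summed level of the list lay between 3.54 and 5.74 TPM in the controls and between 3.86 and 6.72 TPM in cold libraries, with Kdr, Vwf and Pecam1 all below 1 TPM. Cdh5 was thus at a level like that of Cd34, whose own means were 1.32 and 1.69 TPM, and the part of endothelial cells in the Cd34 level was not tested. Tek and Flt1, receptors of endothelial growth factors, had 0.620 and 0.558 TPM in the controls.

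**Figure D1:**
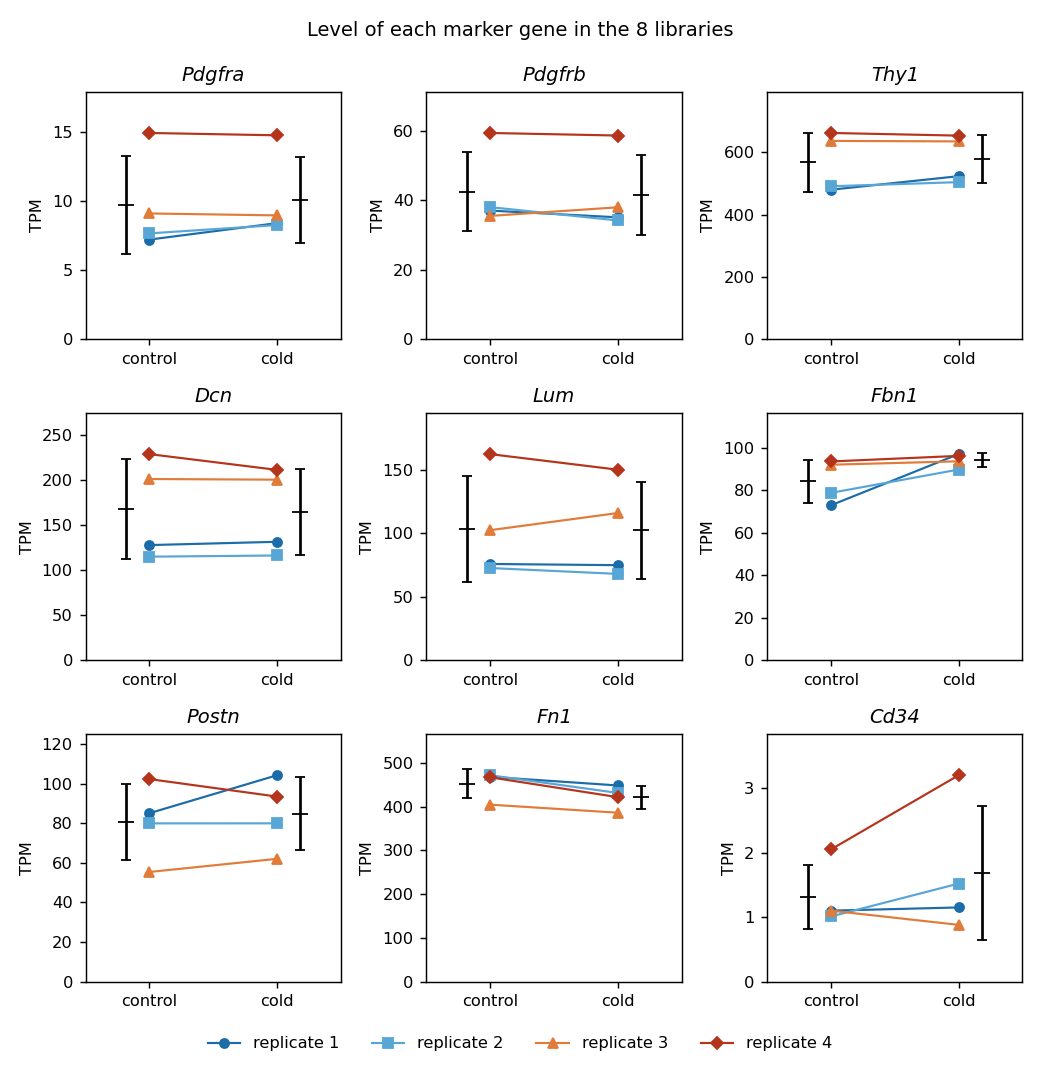
TPM of each of the 9 marker genes (vertical axis from 0) in control and cold libraries. Symbols are single libraries, lines join libraries of the same replicate number, and black bars are means ± SD (n = 4). Lines are mostly flat, and replicate 4 is the highest library in both groups for 6 of the 9 genes.

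Cold exposure was compared with control in edgeR's quasi-likelihood test, fitted on all 12506 genes with enough counts and adjusted over all of them (Benjamini-Hochberg). The study's thresholds were an adjusted p under 0.05 and an absolute log2 fold change no smaller than 1. By these 0 of the 9 genes changed, where 0.04% of all genes tested were called. Without a fold threshold 0 of 9 passed as well, against 0.072% of all genes. At an unadjusted p under 0.05, 1 of 9 passed in edgeR, against 6.7% of all genes, and DESeq2 called 0 of 9 with the fold threshold (0.472% of all genes) and 0 of 9 without it (0.945%). The log2 fold changes lay between −0.12 (Fn1) and 0.23 (Cd34), and adjusted p-values in the edgeR test lay between 0.732 and 0.999. A negative log2 fold change was found in 4 of the 9 genes and in 47.1% of all genes tested. The median was 0.023 for the 9 genes and 0.0071 over all genes.

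The libraries of the 2 groups overlapped in all 9 genes, where 2.41% of the genes tested had all cold libraries below all controls and 2.27% had all of them above. Same-numbered control and cold libraries deviated together, and within replicates 1 and 2 differently numbered ones did so nearly as much. The labels do not state a pairing. The cold effect was also fitted with the replicate number as a block. In that edgeR fit 0 of the 9 genes passed both thresholds, against 0.848% of all genes. On the adjusted p alone 1 of the 9 passed (Fn1), where 5.33% of all genes did, 4.07% lower and 1.26% higher in the cold. The block narrowed the 95% intervals of the log2 fold changes. For the 8 genes other than Cd34 the interval bounds lay between −0.19 and 0.24, so that a 2-fold change in either direction was outside every one of these intervals. Cd34, with 24 to 74 reads per library, had an interval of −0.16 to 0.60 in the blocked fit and of −0.69 to 1.15 without the block.

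**Figure D2:**
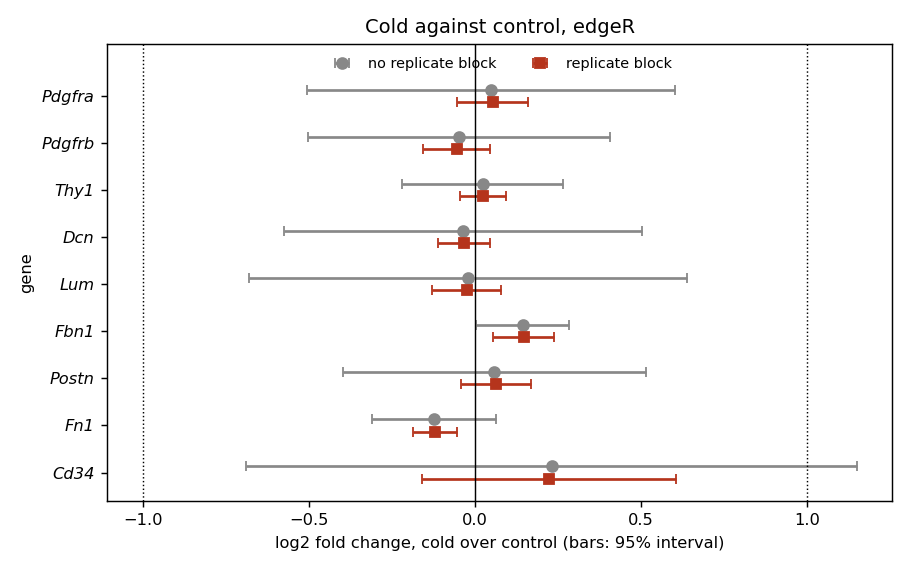
Log2 fold change of cold over control for each gene (horizontal axis) from edgeR without (circles) and with (squares) the replicate number as a block, with 95% intervals. Dotted lines mark a log2 fold change of 1 in either direction, and only Fbn1 and Fn1 have blocked intervals that leave out 0.

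Among the growth factor receptors, Pdgfra (NCBI Gene 101822506), the receptor used to sort fibro-adipogenic progenitors, had 7.21, 7.66, 9.10 and 14.9 TPM in control replicates 1 to 4. The cold values were 8.40, 8.26, 8.96 and 14.8 TPM in the same order. Replicate 4 was far above the rest in both groups, and the groups overlapped. The means were 9.72 ± 3.56 TPM in the controls and 10.1 ± 3.12 TPM in cold (SD, n = 4 each), and the log2 fold change was 0.048 (SE 0.25, edgeR adjusted p = 0.999). An exact two-sided permutation test of TPM gave p = 0.714, where 4 libraries against 4 cannot go below 0.0286.

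Pdgfrb (101840188), shared by fibroblasts and pericytes, had 37.1, 38.1, 35.5 and 59.4 TPM in the controls and 35.1, 34.2, 38.0 and 58.7 TPM in cold replicates 1 to 4. It again set replicate 4 above all other libraries. The log2 fold change was −0.048 (SE 0.20, edgeR adjusted p = 0.999). Within replicates 1 and 2 alone it was −0.18 (edgeR adjusted p = 0.0198, 2 libraries against 2) and within replicates 3 and 4 alone 0.046 (adjusted p = 0.997). The difference between these values was not tested. In the fit to replicates 1 and 2 alone, 1442 of 12452 genes tested passed an adjusted p of 0.05. Pdgfrb exceeded Pdgfra by 3.90 to 5.14 times in TPM, and this ratio was 4.50 ± 0.646 in control and 4.14 ± 0.113 in cold libraries (SD, n = 4 each).

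The ligands of these receptors were also measured. Pdgfc, the highest of them, had 62.4 TPM in the controls and 62.5 TPM in cold libraries, and Pdgfa had 22.9 and 23.8 TPM, while Pdgfd had a mean of 0.983 and 0.893 TPM. Of 4 ligand genes 3 were tested, 0 passed an adjusted p of 0.05 in edgeR with or without the block, and 2 had a negative log2 fold change. Receptors and ligands alike thus showed differences between the groups that were smaller than the spread between replicates.

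At the cell surface, Thy1 (101826959), a glycoprotein anchored in the membrane by a lipid, had 480.1, 491, 637 and 662 TPM in control replicates 1 to 4 and 524, 504, 635 and 654 TPM in cold replicates 1 to 4. Replicates 3 and 4 were above replicates 1 and 2 in both groups, with no overlap between them. The log2 fold change was 0.023 (SE 0.11, edgeR adjusted p = 0.999), and the blocked 95% interval ran from −0.046 to 0.093. Among the 9 genes only Fn1 had a smaller SE in the blocked fit (0.032 against 0.033 for Thy1).

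Cd34 (101833962), a sialomucin of progenitor cells, had 1.10, 1.01, 1.10 and 2.05 TPM in the controls and 1.15, 1.52, 0.88 and 3.20 TPM in cold replicates 1 to 4. The read counts behind these values were 25, 26, 26 and 56 in control and 29, 31, 24 and 74 in cold libraries. The exact Poisson 95% interval was 42.3 to 72.7 reads for control replicate 4 and 58.1 to 92.9 reads for cold replicate 4, and it covers counting error only. Replicate 4 was thus the highest library in both groups, and no difference between cold and control was detectable at this depth (log2 fold change 0.23, SE 0.41, edgeR adjusted p = 0.999). The related sialomucin genes Podxl and Podxl2 were as low, with 1.05 and 0.588 TPM in control libraries.

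Dcn and Lum encode decorin and lumican, small leucine-rich proteoglycans that bind collagen fibrils and regulate their assembly. Dcn (101835832) had 128, 115, 201 and 229 TPM in the controls and 132, 116, 200.3 and 211 TPM in cold replicates 1 to 4. Replicates 3 and 4 were well above replicates 1 and 2, and control and cold values of the same number were close. The log2 fold change was −0.036 (SE 0.24), and with the block −0.033 (SE 0.038, edgeR adjusted p = 0.702).

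Lum (101836594) had 75.9, 72.7, 102 and 162 TPM in the controls and 75.0, 68.1, 116 and 150.1 TPM in cold replicates 1 to 4. Replicate 4 was the highest and replicate 2 the lowest in both groups, and the log2 fold change was −0.022 (SE 0.29, edgeR adjusted p = 0.999). The ratio of Dcn to Lum in TPM was 1.66 ± 0.232 in control and 1.65 ± 0.162 in cold libraries (SD, n = 4 each), so the balance of the pair differed by less than the replicate spread.

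Other proteoglycans of this family were present at unequal levels. Bgn (biglycan) had 261 TPM in the controls and 254 TPM in cold libraries and Fmod (fibromodulin) 62.4 and 61.3 TPM, whereas the other 5 with values, Aspn the highest among them, had a mean below 1 TPM. Of 8 genes listed 7 had values and 2 were tested. Neither passed an adjusted p of 0.05 in edgeR in either fit. The replicates differed for both: Bgn was highest in replicate 4, at 355 and 329 TPM, and Fmod was lowest there, at 42.2 and 45.8 TPM.

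Fbn1 (101827314) encodes fibrillin-1, the backbone of the microfibrils that carry elastin and store TGF-β. Its values were 73.0, 78.9, 92.1 and 93.6 TPM in the controls and 97.1, 89.8, 93.7 and 96.3 TPM in cold replicates 1 to 4. The cold library was the higher in 4 of 4 pairs, as for 12.8% of all genes tested, and the gap was wide in replicates 1 and 2 and narrow in replicates 3 and 4. The mean went from 84.4 ± 10.1 to 94.2 ± 3.27 TPM (SD, n = 4 each), and the log2 fold change was 0.14 (SE 0.062, edgeR adjusted p = 0.732). The exact two-sided permutation test of TPM gave p = 0.114.

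With the replicate block the log2 fold change of Fbn1 was 0.15 (SE 0.044) with an edgeR adjusted p of 0.0599, just short of the threshold. Within replicates 1 and 2 alone it was 0.23 (edgeR adjusted p = 0.00168, 2 libraries against 2), and within replicates 3 and 4 alone 0.048 (adjusted p = 0.997). The difference between these 2 values was not tested. Of the 14 other genes of microfibrils and elastic fibres, all tested, 8 had a negative log2 fold change and the median was −0.024. Ltbp2, the highest of them, had 124 TPM in the controls and 126 TPM in cold libraries. Efemp1 had 105 and 111 TPM, and Ltbp1 73.1 and 75.4 TPM. In the blocked edgeR fit Fbln5 (fibulin-5), singled out after its values were seen, was the 1 gene of this list that passed an adjusted p of 0.05. It was lower in the cold by 0.17 on the log2 scale (edgeR adjusted p = 0.0445, or 0.881 without the block).

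Postn (101823834) encodes periostin, a matrix protein of remodelling tissue that binds integrins. It had 85.0, 79.9, 55.4 and 102 TPM in the controls and 104, 79.9, 62.0 and 93.4 TPM in cold replicates 1 to 4. Replicate 3 was the lowest in both groups, unlike for Dcn, Lum and Thy1, where replicate 3 was above replicates 1 and 2. The log2 fold change was 0.058 (SE 0.20, edgeR adjusted p = 0.999), and its blocked 95% interval ran from −0.042 to 0.17. Its relative Tgfbi was low, with 1.56 TPM in the controls and 1.48 TPM in cold libraries.

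Fn1 (101826613) encodes fibronectin, the adhesive glycoprotein on which many other matrix proteins assemble. It had 469, 472, 405 and 467 TPM in the controls and 449, 432, 386 and 422 TPM in cold replicates 1 to 4. The cold library was the lower in 4 of 4 pairs, as for 10.5% of all genes tested, and replicate 3 was the lowest in each group. The mean went from 453 ± 32.3 to 422 ± 26.3 TPM (SD, n = 4 each). The log2 fold change was −0.12 (SE 0.083, edgeR adjusted p = 0.947), and the exact two-sided permutation test of TPM gave p = 0.200.

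In the fit with the replicate block Fn1 fell by 0.12 on the log2 scale (SE 0.032, edgeR adjusted p = 0.0295), the 1 call among the 9 genes. Within replicates 1 and 2 alone the log2 fold change was −0.16 (edgeR adjusted p = 0.00328, 2 libraries against 2) and within replicates 3 and 4 alone −0.093 (adjusted p = 0.997). Fbn1 and Fn1 had opposite signs, and the ratio of Fbn1 to Fn1 in TPM was 0.188 ± 0.0326 in control and 0.224 ± 0.0150 in cold libraries (SD, n = 4 each).

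The receptors and cross-linkers that fibronectin meets at the cell surface differed among themselves. Itgb1 (integrin β1) had 458 TPM in the controls and 466 TPM in cold libraries, Sdc4 132 and 137 TPM, and Itga5, the fibronectin-binding α chain, 77.1 and 74.9 TPM. None of the 7 genes passed in the unblocked edgeR fit, and 5 had a negative log2 fold change. With the block, where 5.33% of all genes tested passed, 1 of 7 did. This was Itga4, an α chain also found on myogenic cells and leukocytes and named here after its values were seen, which fell by 0.91 on the log2 scale (edgeR adjusted p = 3.80e-07), from 12.5 to 6.72 TPM.

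The replicate numbers accounted for most of the spread of these genes. When the squared deviations of log2 CPM over the 8 libraries were divided, the share between replicate numbers was between 93.2% and 99.7% in Pdgfra, Pdgfrb, Thy1, Dcn, Lum, Postn and Cd34. It was 76.0% in Fn1, where 21.6% lay between cold and control. Fbn1 was the exception, with 19.6% between replicate numbers and 46.8% between cold and control. The median share between replicate numbers was 94.9% over the 9 genes and 64.8% over all genes tested.

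**Figure D3:**
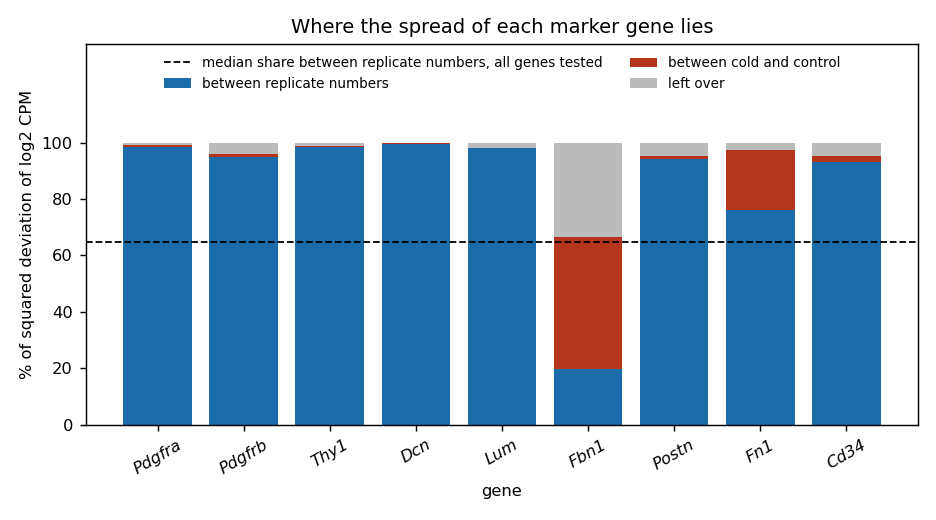
Share of the squared deviation of log2 CPM over the 8 libraries (vertical axis, %) that lies between replicate numbers, between cold and control, and in neither, for each gene. The dashed line is the median share between replicate numbers over all genes tested, 64.8%, and 8 of the 9 genes lie above it.

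Differences between replicate numbers were tested with the F test of those terms in the blocked edgeR fit, a test added after the values were seen. By it 8 of the 9 genes differed at an adjusted p under 0.05, and 35.4% of all genes tested did. The F statistic was 124 for Dcn (edgeR adjusted p = 5.74e-10), 107 for Lum (1.59e-09), 73.1 for Pdgfra (1.96e-08) and 52.1 for Pdgfrb (1.83e-07). Fbn1 did not pass (F = 1.54, edgeR adjusted p = 0.364). What the replicate numbers stand for (animals, isolations or days) is not given in the sources used here.

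The genes that differed did so in unlike ways. Pdgfra, Pdgfrb and Cd34 set replicate 4 apart, by 1.87, 1.61 and 1.92 times the mean of the other controls and by 1.73, 1.64 and 2.70 times in the cold. Lum stood out in replicate 4 by 1.94 times in control and 1.74 times in the cold, and it also differed among the other replicates. Without replicate 4, Pdgfra, Pdgfrb and Cd34 no longer differed between the remaining replicate numbers (edgeR adjusted p between 0.231 and 0.883), and the number that did was 5 of 9, with 31.7% of all genes. Fbn1 did not pass with or without it. Dcn, Lum, Thy1, Postn and Fn1 still differed without it, with edgeR adjusted p-values of at most 1.92e-05. Without replicate 3, Fn1 lost its call (edgeR adjusted p = 0.178) and 7 of 9 differed, with 25.5% of all genes.

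**Figure D4:**
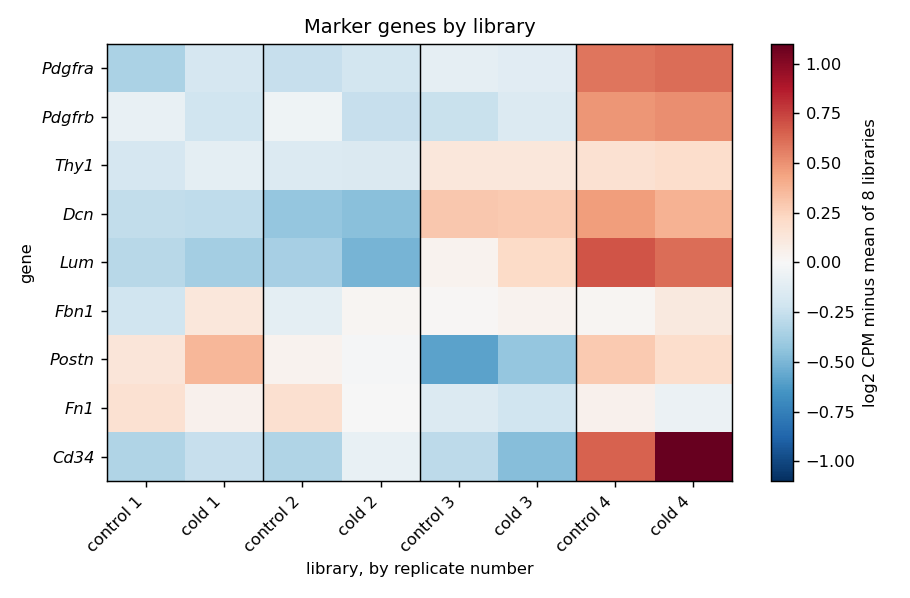
Log2 CPM of the 9 genes (rows) in each library (columns, ordered by replicate number), centred on the mean of the 8 libraries. Columns of the same number are mostly alike in colour for the genes other than Fbn1 and Fn1. Replicate 4 is above the mean in both groups for all genes other than Fn1. Replicate 3 is above it in both groups for Thy1, Dcn, Lum and Fbn1 and below it for the other 5 genes.

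The days at 37°C in the treatment field differ between the controls, so in the controls replicate number and these days cannot be told apart. The labels of the cold libraries give the same schedule for all 4. Some markers of other cells also differed between replicates. In the F test 1 of 4 endothelial and 1 of 3 adipocyte genes tested passed, where 35.4% of all genes tested did. The leukocyte list held 12 genes, 10 with values. Only 4 passed the filter on low counts, and all 4 differed between replicate numbers in the F test. Its summed level was 59.8 and 60.2 TPM in control replicates 1 and 2 and 129 and 97.3 TPM in control replicates 3 and 4. In the cold it was 63.4, 56.2, 130.4 and 113 TPM in replicates 1 to 4.

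Nearly all of this came from Cd68 (lysosomal), Cd14 and Fcer1g, which had 34.1, 27.7 and 21.6 TPM in control libraries, while the leukocyte-defining Ptprc, Adgre1 and Itgam were below 0.1 TPM. Csf1r, the receptor that macrophages depend on, was present at 2.31 to 4.55 TPM, from 106 to 208 reads, and was highest in replicate 4 of both groups (edgeR adjusted p = 0.000196 between replicate numbers). The summed level of the myogenic list moved the other way. It was 4148, 4153, 3076 and 2954 TPM in the controls and 3094, 3345, 2768 and 2532 TPM in cold replicates 1 to 4. Its genes were not alike in this. Myog had 1008, 1016, 449 and 480 TPM in control replicates 1 to 4. Myf5 had 99.85, 103, 182 and 202 TPM there and 111, 121, 180 and 205 TPM in cold replicates 1 to 4. The part of either list in the replicate pattern was not tested. The 9 marker genes summed to 1356, 1357, 1538 and 1793 TPM in the controls and to 1425, 1334, 1541 and 1703 TPM in cold replicates 1 to 4. The ratio of this sum to the myogenic sum therefore ran from 0.327 in control replicate 2 to 0.673 in cold replicate 4.

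The summed level of the 9 genes was 1511 ± 207 TPM in the controls and 1501 ± 159 TPM in the cold (SD, n = 4 each), a log2 ratio of the means of −0.0095. Against the myogenic list, the ratio was 0.440 ± 0.138 in control and 0.522 ± 0.120 in cold (SD, n = 4 each), with the myogenic sum lower in the cold in each pair. In that list 10 of 13 genes tested had a negative log2 fold change and the median was −0.14. None passed an adjusted p of 0.05 without the block. With it 7 passed as lower and 1 as higher in the cold, where 4.07% and 1.26% of all genes tested did. Mymk, which drives myoblast fusion, fell from 259.9 to 88.8 TPM, by 1.54 on the log2 scale in the blocked edgeR fit (adjusted p = 6.96e-12). Myog fell from 738 to 449 TPM, by 0.71 on the log2 scale in the blocked edgeR fit (adjusted p = 2.96e-09), and did not pass without the block (adjusted p = 0.824). The 1 that rose, Megf10, a receptor of SCs singled out after its values were seen, had a log2 fold change of 0.17 (blocked edgeR adjusted p = 0.0184).

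The further fibroblast markers were also close between the groups. Of 23 tested, 13 had a negative log2 fold change, the median was −0.0067, and 0 passed an adjusted p of 0.05 in edgeR with or without the block. Their summed level lay between 2566 and 2932 TPM in the controls and between 2628 and 2886 TPM in cold libraries. As with the 9 genes the replicates were unlike, and 20 of 23 differed between replicate numbers in the F test, where 35.4% of all genes tested did. Serpinf1, which encodes the secreted factor PEDF, ran against Dcn and Lum, with 428 and 414 TPM in control replicates 1 and 2 and 287 and 289 TPM in control replicates 3 and 4.

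**Figure D5:**
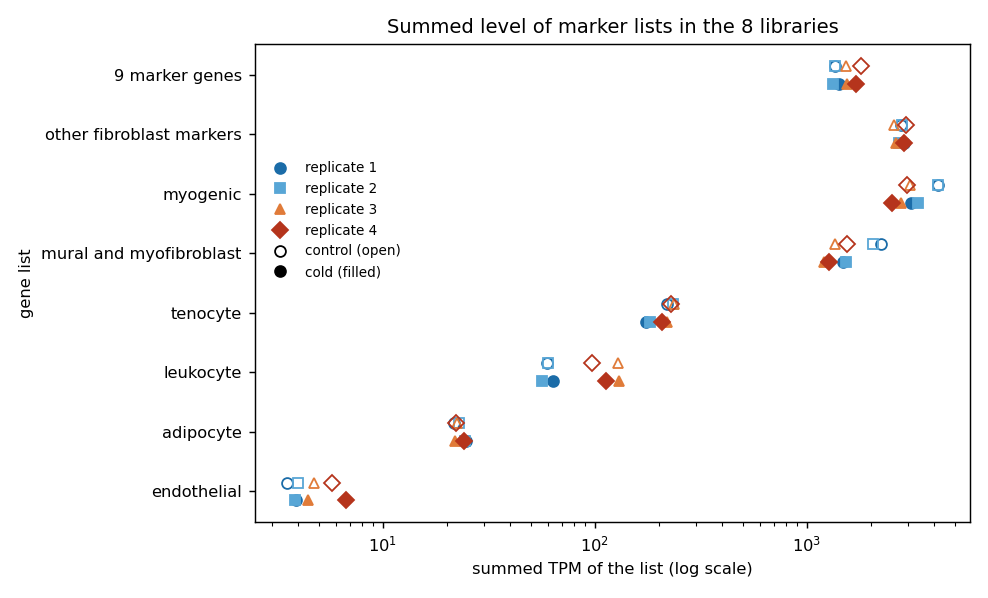
Summed TPM (horizontal axis, log scale) of the 9 marker genes and of lists of other cell type markers in each library, with controls as open and cold libraries as filled symbols. The marker genes sum to between 1334 and 1793 TPM in the 8 libraries, above the leukocyte, adipocyte and endothelial lists.

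Of the lists of neighbouring cell types, that of mural cells and myofibroblasts (pericytes, smooth muscle and activated fibroblasts) had a sum as high as the 9 genes. It lay at 1209 to 2237 TPM, and most of it was Acta2 alone, at 961 to 1950 TPM. Rgs5, Kcnj8, Abcc9 and Steap4, 4 of its 11 genes, had a mean below 1 TPM. The tendon list summed to between 175 and 237 TPM. In the blocked edgeR fit 1 of 9 mural genes (Acta2) and 1 of 3 tendon genes (Scx) tested passed as lower in the cold. Of all genes tested 4.07% did, and none of these 2 lists did without the block. The adipocyte, endothelial and leukocyte lists were far lower. The adipocyte list summed to between 21.8 and 24.8 TPM, led by Lpl (17.1 TPM in the controls), Pparg (2.95 TPM) and Cebpa (1.43 TPM), with 4 of 7 genes below 1 TPM, Adipoq and Plin1 among them. Among Schwann cell and glial markers, S100b had 0.910 TPM and Ngfr 0.730 TPM in the controls. In edgeR 0 of the 3 adipocyte genes tested passed with or without the block, as for the 4 endothelial and the 4 leukocyte genes tested. Their median log2 fold changes were 0.038 (adipocyte), −0.055 (endothelial) and 0.12 (leukocyte).

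The genes nearest to the mean course of the 9 markers over the 8 libraries were sought among 11293 other genes with a symbol. Likeness was the root mean square difference between log2 CPM, centred for each gene, and the mean of the 9 centred profiles. The markers themselves lay between 0.10 (Pdgfrb) and 0.32 (Cd34) from this mean, further than the genes named next. Meox2, a homeobox gene, was nearest at 0.047, followed by Igfbp4 (0.049), which binds insulin-like growth factors, and Ccn2 (0.050), a secreted matrix-associated protein. Nab2 (0.058) and Grem1 (0.062), which encodes a BMP antagonist, came next. In each of these 5 genes replicate 4 was the highest in both groups, as in the mean of the markers, where it stood 0.38 in control and 0.41 in cold libraries above the average of the 8 on the log2 scale. Their own log2 fold changes for cold were between 0.0053 and 0.034 (edgeR adjusted p = 0.999 each). The mean profile has both traits, so choosing genes near it favours them, and they are no separate result.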

How the data were processed

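Libraries from polyA RNA of 4 control and 4 cold cultures were sequenced as paired-end reads. The submitters' processing notes name HISAT and HISAT2, and the counting program and genome build are not given in the sources used here. The authors deposited expected counts, which are not normalized, TPM scaled within each library, and normalized counts, a signal that was not used in any test. Counts of the 9 genes were whole in all 8 libraries. Groups came from the sample titles. The members and lists were chosen with earlier results of these data known, and lists are described by counts and medians only.

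Rounded counts went into edgeR 4.0.16 under R 4.3.3 (filterByExpr, TMM, quasi-likelihood F test, Benjamini-Hochberg over 12506 genes). The test was checked on data simulated from the blocked fit, with log2 changes of 1.5 or 2 in 100 genes each. At an adjusted p under 0.05 it recovered 91 of 100 at either size without the block, with 0 false calls. With the block it recovered 98 and 97, with 7 false calls. Changes as small as those of the 9 genes were not simulated. SE is the absolute log2 fold change over the square root of F. The 95% intervals use the total degrees of freedom of the fit, which add a prior part estimated over all genes to the residual ones. TPM of single genes also went through exact permutation, two-sided (70 arrangements). Replicate numbers were taken to pair the libraries, because deviations from group means correlated across genes at 0.61, 0.62, 0.65 and 0.66 in same-numbered libraries. Differently numbered ones reached 0.57 and 0.59 within replicates 1 and 2 and 0.43 and 0.47 within replicates 3 and 4, and lay between −0.61 and −0.55 across these sets. P-values set a difference against the spread between these libraries. In the blocked edgeR fit this is the spread left once differences between replicate numbers are taken out. The edgeR variances are also moderated over all genes. The named genes are the 9 markers, the 3 highest by TPM of each other list with any past both thresholds, and the 5 nearest in profile. The summary of the glial list is not reported here. Other genes (Fbln5, Itga4, Megf10, Myf5, Pax7, Calcr, Csf1r, Pi16 and further markers at or near 0) were chosen once their values were known. Alternatives were DESeq2 1.42.0, RLE factors, library totals, other filters, the replicate block, limma 3.58.1 on log2(TPM + 0.1) or log2(TPM + 1), glmTreat, and leaving out libraries. Figures were drawn with matplotlib 3.10.9.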

Additional observations from a re-analysis of the deposited data

Results flagged for a closer look

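Within groups of 4 libraries, 20 groups (9 genes and their sum, in control and in cold) were examined for a highest or lowest value far from the others by Dixon's criterion. A value was isolated in 5 of the 20, where chance gives about 1 in 20, and groups that share a replicate number are not independent. Replicate 4 was the isolated library in 4 of the 5. Pdgfra in cold replicate 4 was at 14.75 TPM, against 8.26 to 8.96 TPM in the other cold libraries. Pdgfrb was isolated in both groups, at 59.41 TPM in control replicate 4 against 35.53 to 38.05 TPM and at 58.67 TPM in cold replicate 4 against 34.22 to 38.01 TPM. Cd34 in control replicate 4 was at 2.05 TPM, from 56 reads, against 1.01 to 1.10 TPM. Fn1 in control replicate 3 was low, at 404.85 TPM, against 467.43 to 472.14 TPM. What sets these libraries apart was not tested.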

How the results depend on the processing

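The number of the 9 genes past both thresholds was 0 in every alternative run. Over all genes that number was 5 and became 68 with DESeq2, 106 with the replicate block, 183 and 28 within replicates 1 and 2 or 3 and 4 alone, 15 without a filter, 8 with library totals, 3 with a stricter filter, 0 or 3 with limma, 0 with glmTreat and 0 to 34 without single libraries. Without a fold threshold it was 9 over all genes, 136 with DESeq2, 667 with the block and 1442 of 12452 genes tested within replicates 1 and 2 alone. Among the 9 genes it was then 0 except with the replicate block (1, Fn1) and within replicates 1 and 2 alone (3: Fbn1, Fn1 and Pdgfrb), and the block changed no other call among them. Fbn1 and Fn1 kept their signs in all 19 alternatives. Within replicates 3 and 4 alone Pdgfrb was at 0.0455, Lum at 0.0216 and Postn at −0.0013 on the log2 scale, each of the opposite sign to the value from all libraries, and no alternative that kept all 8 libraries turned a sign. Leaving out single libraries moved the log2 fold change of Pdgfra between −0.1915 and 0.3016, Pdgfrb between −0.262 and 0.129, Thy1 between −0.0406 and 0.086, Dcn between −0.1778 and 0.1259, Lum between −0.2668 and 0.2574, Postn between −0.0979 and 0.1855 and Cd34 between −0.2709 and 0.5645, so these unblocked signs rest on single libraries. Fn1 then lay between −0.192 and −0.078 and Fbn1 between 0.0904 and 0.1758. Leaving out 1 replicate number at a time, the number of genes that differed between replicates ranged from 5 to 8 of the 9, with 25.5% to 33.6% of all genes. The log2 ratio of the summed level was −0.034 without Thy1 and −0.047 in CPM with TMM factors. In tests over sign changes within pairs the smallest possible p is 0.125, so they could not pass. Cd34 is limited by its depth of 24 to 74 reads.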

Other observations

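Among markers of contractile and tendon-lineage mesenchyme, Acta2 and Scx were lower in the cold in the fit with the replicate block. Acta2, smooth muscle actin, which is also made by differentiating myoblasts, had 1526 TPM in the controls and 1097 TPM in cold libraries, with the cold library below its control in 4 of 4 pairs. Its log2 fold change was −0.50 without the replicate block (edgeR adjusted p = 0.676) and −0.46 with it (adjusted p = 2.68e-05). Tagln (208 and 216 TPM) and Cspg4 (28.3 and 26.9 TPM) did not pass in either edgeR fit, and Acta2 was the 1 of 9 genes tested of the mural and myofibroblast list that did, while the list had a median log2 fold change of 0.017.

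Scx, which encodes the tendon factor scleraxis, was measured at 199 TPM in the controls and 166 TPM in cold libraries. The cold library was again the lower in all 4 pairs, with a log2 fold change of −0.28 (edgeR adjusted p = 0.399, or 0.00248 with the block). Thbs4 and Tnc, at 5.09 and 24.9 TPM in control, did not pass in either edgeR fit, and the tendon markers Tnmd and Mkx were below 1 TPM. The tendon list had 3 genes tested, all with negative log2 fold changes (median −0.094).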
